A study of Mus musculus with 17 samples.

Results

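The genes of interest are the subunits of the transcription factor NF-kB and the proteins that restrain it, 9 genes in all: Nfkb1, Nfkb2, Rela and Relb encode subunits, and Nfkbia, Nfkbib, Nfkbiz, Tnfaip3 and Bcl3 encode inhibitors and regulators. They were matched by the gene symbol that the platform annotation pairs with a probe set, the group of oligonucleotides that reports 1 transcript. No probe set is paired with Nfkb1 there, so Nfkb1 was not analysed here. The other 8 genes, of 8251 genes with a symbol on the array, are measured by 12 of 12488 probe sets. The samples were mouse brain, from white and grey matter supplied by the middle cerebral artery, hybridised to 17 arrays. There were 3 pools, each of 6 brains, in every one of 4 groups: control, collected 6 h after saline; AEOL 10150 control ("drug control"), collected 6 h after AEOL 10150; ischemia-reperfusion ("ischemic"), with 1 h of ischemia and 6 h of reperfusion; and ischemia-reperfusion with AEOL 10150 ("treated ischemic"), with intravenous drug between the same ischemia and reperfusion. The other 5 arrays each carried 1 brain, numbered 11, 12, 13, 14 or 16, that received ischemia, AEOL 10150 and reperfusion. AEOL 10150 is a catalytic antioxidant; the labels give no dose, strain, sex or age, and do not say whether the ischemic mice without drug received saline. The descriptions of 2 pools lack the drug that their titles name: drug control pool 1 is described with saline, and treated ischemic pool 1 with no drug.

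NF-kB is a family of dimers that sit in the cytoplasm of resting cells, bound by inhibitors of the IkB family. Cytokines, microbial products and oxidants activate the IkB kinase, which marks the inhibitor for degradation, and the freed dimer enters the nucleus and switches on genes of inflammation and survival. Among its targets are its own inhibitors, which gives the pathway a negative feedback loop. In brain, neurons, glia and vessel cells all carry the pathway, and it is known to be activated by ischemia.

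Dimers bind the kappa B motif: 3 guanines, a purine, any base, adenine or thymine, 2 pyrimidines and 2 cytosines. The promoters of the members that carry this motif are shown first, because the motif is the one named for the factor that these genes encode or restrain. RefSeq windows of the 250 bases before a transcription start (mouse assembly GRCm38.p6) were found for 6 of the 9 members, 9 windows in all. Nfkb1, Relb and Nfkbiz are without a window here. On either strand, 5 windows of 3 genes held the motif (Nfkb2, Nfkbia and Tnfaip3), against 3.90% of 32851 windows and 4.46% of 27025 genes. The windows of Rela, Nfkbib and Bcl3 and a second Tnfaip3 window held no match. Matches are in capitals in the sequences below, which read 5′ to 3′ toward the gene.
Nfkbia, chr12:55492648-55492897, minus strand: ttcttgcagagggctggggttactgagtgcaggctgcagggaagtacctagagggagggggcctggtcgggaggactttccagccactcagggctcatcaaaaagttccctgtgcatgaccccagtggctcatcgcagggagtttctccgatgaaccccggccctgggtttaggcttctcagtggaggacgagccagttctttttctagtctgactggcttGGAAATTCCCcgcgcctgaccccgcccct
Tnfaip3, chr10:19015411-19015660, minus strand: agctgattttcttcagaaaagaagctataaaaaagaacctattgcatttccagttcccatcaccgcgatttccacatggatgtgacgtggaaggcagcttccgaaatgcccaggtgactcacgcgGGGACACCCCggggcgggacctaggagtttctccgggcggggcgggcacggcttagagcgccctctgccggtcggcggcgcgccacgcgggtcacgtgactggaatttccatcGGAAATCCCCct
Nfkb2, chr19:46304487-46304736, plus strand: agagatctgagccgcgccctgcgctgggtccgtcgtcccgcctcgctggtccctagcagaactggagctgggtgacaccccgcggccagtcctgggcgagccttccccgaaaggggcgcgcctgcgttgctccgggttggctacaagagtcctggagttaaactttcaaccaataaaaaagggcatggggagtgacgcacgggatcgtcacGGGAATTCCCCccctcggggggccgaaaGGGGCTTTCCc
Nfkbia has 1 match, on the opposite strand, from 29 to 20 bases before the start (GGGAATTTCC). Tnfaip3 has 2, from 125 to 116 bases before the start (GGGACACCCC) and, on the opposite strand, from 12 to 3 bases before it (GGGGATTTCC). In this Nfkb2 window 4 matches fall in 2 places. GGGAATTCCC, which reads the same on both strands, lies from 39 to 30 bases before the start and overlaps GGGGAATTCC, and GGGGCTTTCC lies from 11 to 2 bases before it. A match is a run of letters and was not tested for binding. The expression of the genes is described next, with these 3 among them.

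Values are intensities after every array was scaled to a mean of 2500 between its 2nd and 98th percentiles, given as log2. Intensities under 109.5, the 25th percentile of the scaled pools, were set to that floor, 6.77 on the log2 scale, and a value at the floor is only a bound. Before scaling, 10 arrays shared a trimmed mean of 2500. The other 7, namely the single brains and pools 2 and 3 of the treated ischemic group, had trimmed means from 129 to 210. The deposited scale of the single brains and their group therefore cannot be told apart. Neuronal markers were present in every group, with 6 of 8 listed genes on the array, each above the floor on some array, and summed intensities from 100290 to 170164. Of the 12 member probe sets, 9 (of 7 genes) were above the floor on at least 3 pools and were tested. The 3 others were a second Rela probe set (162042_i_at) and the Bcl3 probe set (102239_at), both at the floor on all 17 arrays, and a second Nfkbiz probe set (161903_f_at), above it on 3. Scaled intensities of Bcl3 ran from -6277 to -730, far below 0, so Bcl3, a nuclear partner of NF-kB subunits, was not above background.

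**Figure D1:**
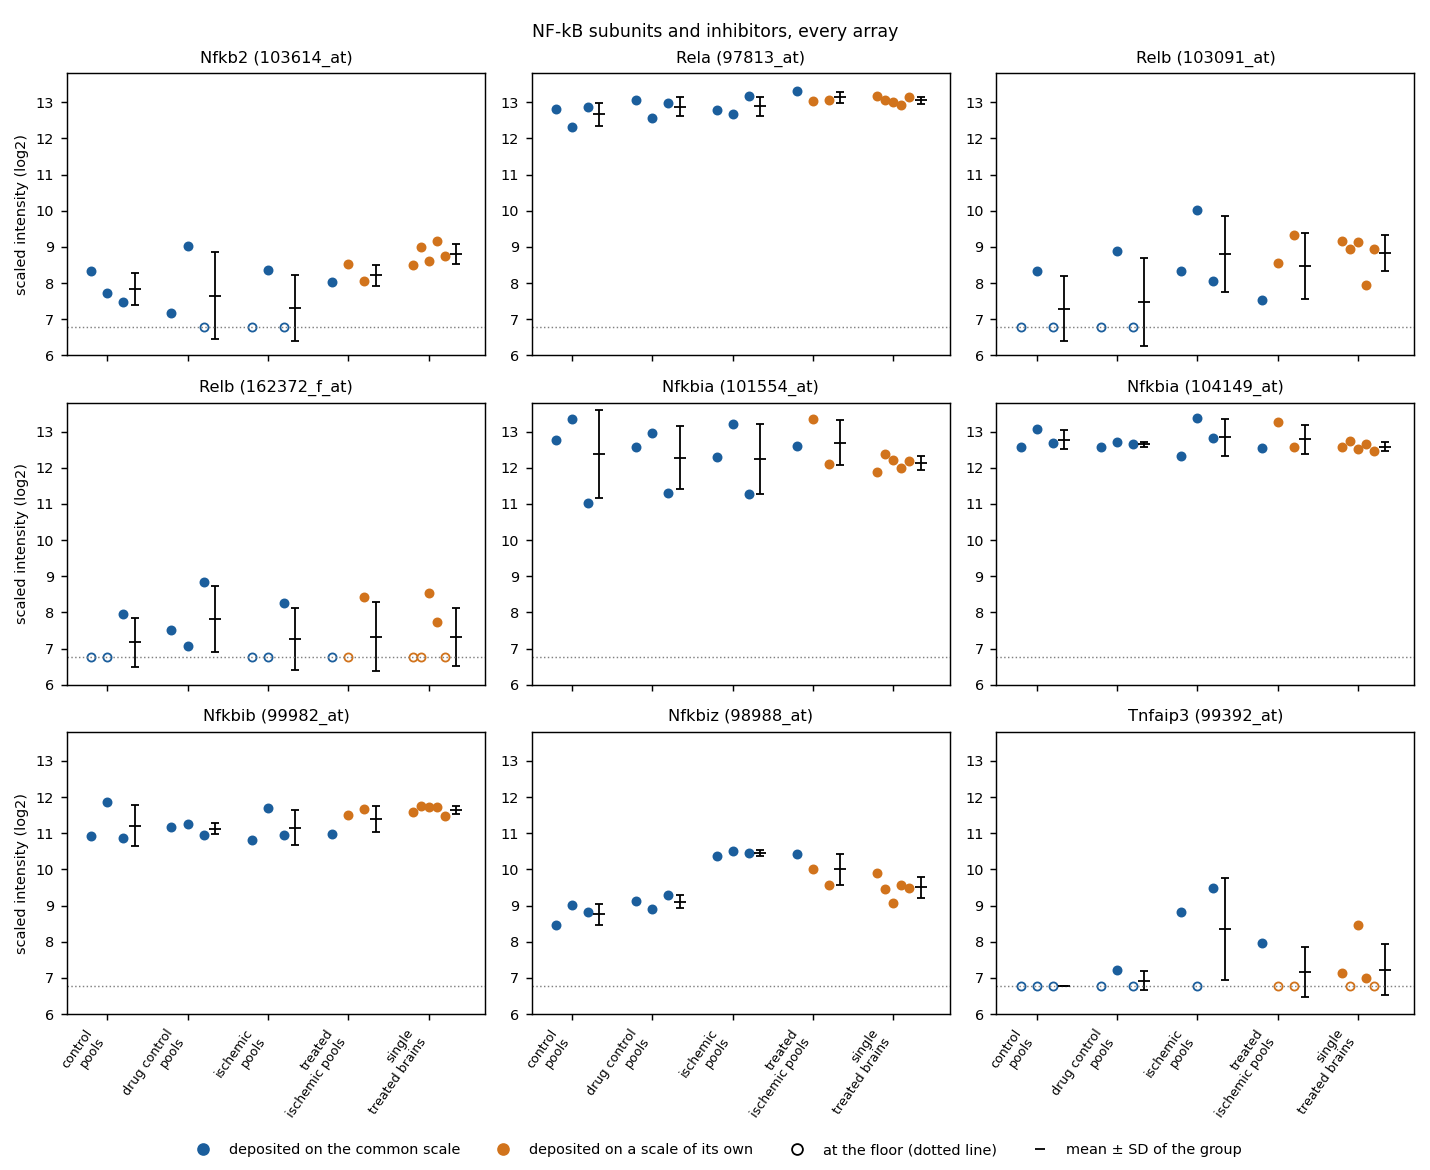
Scaled intensity (log2) of the 9 tested member probe sets on all 17 arrays, by group. Points are arrays, open where at the floor (dotted line) and coloured by deposited scale, and bars give the mean ± SD. Nfkbiz lies between 10.37 and 10.52 in the ischemic pools and between 8.46 and 9.03 in the control pools, and Rela lies between 12.31 and 13.30 on every array.

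The clearest response among the members was that of Nfkbiz, the gene of IkB-zeta, an inducible nuclear regulator of the IkB family that modifies which NF-kB targets are transcribed. Its probe set 98988_at read 8.46, 9.03 and 8.81 in the 3 control pools and 10.37, 10.52 and 10.46 in the ischemic pools. Every ischemic pool was above every control pool, and the ischemic pools lay close together. Nfkbiz rose 3.21-fold in ischemic against control pools (95% interval 2.21 to 4.67; log2 difference 1.68, SE 0.24; limma adjusted p = 0.0226), ranking 17 by p among 10259 probe sets. Because these are bulk samples, more cells that express a gene and more RNA per cell cannot be told apart. Of the 9 tested member probe sets, 1 passed here, as did 0.214% of all probe sets (22, all higher); 2 members and 423 probe sets had an unadjusted p under 0.05. Nfkbiz was also the 1 member whose 3 ischemic pools all exceeded the 3 control pools, which held for 4.07% of all probe sets. The call was lost when any of the 6 arrays compared was left out (adjusted p 0.104, 0.0646 and 0.0755 without control pools 1, 2 and 3; 0.108, 0.127 and 0.0960 without ischemic pools 1, 2 and 3) and under quantile normalisation (0.0556), while the log2 difference kept between 1.53 and 1.81.

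With AEOL 10150 in both groups, Nfkbiz read 9.11, 8.92 and 9.30 in the drug control pools and 10.43, 10.004 and 9.58 in the treated ischemic pools. All treated ischemic pools were again above all drug control pools, but they were spread more widely. The difference was 1.86-fold (95% interval 1.27 to 2.70; log2 0.89, SE 0.24) and did not pass over all probe sets (limma adjusted p = 0.652). In this comparison 0 member probe sets and 0.0877% of all probe sets (9) passed, and 1 member and 353 probe sets had an unadjusted p under 0.05. Non-overlapping higher values were seen in 3.75% of all probe sets, and in both ischemia comparisons at once in 1.04%; Nfkbiz was the 1 member in each of these counts. Averaged over both drug arms, Nfkbiz rose 2.44-fold with ischemia (95% interval 1.87 to 3.18; log2 1.29, SE 0.17; limma adjusted p = 0.00809). It was 1 of 9 members called there, beside 0.448% of all probe sets (46, of which 45 rose); unadjusted, 2 members and 505 probe sets were under 0.05. This call held in all 20 alternatives run, with adjusted p from 0.0020 to 0.0328.

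The log2 response of Nfkbiz to ischemia was smaller with the drug than without it by 0.79 (SE 0.34; unadjusted p = 0.0441), and this difference did not pass over all probe sets in limma (adjusted p = 0.9997). None of the members and 0% of all probe sets passed that test, with 1 member and 213 probe sets at an unadjusted p under 0.05. Treated ischemic minus ischemic pools gave -0.45 (SE 0.24; 95% interval -0.99 to 0.097; limma adjusted p = 1), a comparison that shares the ischemic pools with the one above. Drug control minus control pools gave 0.35 (SE 0.24; 95% interval -0.20 to 0.89). The smaller response thus combines lower treated ischemic values with higher drug control values. The single treated brains read 9.91, 9.46, 9.08, 9.58 and 9.49 for Nfkbiz. All 5 were below the lowest ischemic pool, and they overlapped the range of the drug control pools. Their mean was lower than that of the ischemic pools by a factor of 1.93 (log2 -0.95, SE 0.19; limma adjusted p = 0.0502) and higher than that of the drug control pools by 0.39 (SE 0.20; adjusted p = 0.231). How many of all probe sets separated the single brains from the ischemic pools was not counted. In limma, 2295 of 9889 had an unadjusted p under 0.05 there.

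The lower values of Nfkbiz lay on arrays with another deposited scale. Treated ischemic pool 1, the treated pool on the common scale and the one described with no drug, read 10.43, inside the ischemic range and 0.018 below the ischemic mean. All 7 arrays deposited on another scale read between 9.08 and 10.004, below the lowest ischemic pool. A model with the scale as a term rests on this 1 treated pool and so returns the same -0.018 in place of -0.45; its rise over both drug arms was 1.50 (limma adjusted p = 0.0173). With groups taken from the descriptions, where pool 1 has no drug, the treated ischemic minus ischemic difference was -0.65 (adjusted p = 1). The part of the scale in the lower values was not tested, since only 1 treated pool has the common scale. Ordered by mean, Nfkbiz was at 8.77 ± 0.29 (SD, n = 3) in control, 9.11 ± 0.19 (n = 3) in drug control, 9.50 ± 0.30 (n = 5) in single treated brains, 10.003 ± 0.43 (n = 3) in treated ischemic and 10.45 ± 0.078 (n = 3) in ischemic arrays. Each neighbouring pair in this order had overlapping ranges. The second Nfkbiz probe set was above the floor on 3 arrays, all from ischemic brain: ischemic pool 2 (7.45), treated ischemic pool 1 (7.07) and single brain 14 (6.88). On every other array, with ischemia or without, it was at the floor.

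**Figure D2:**
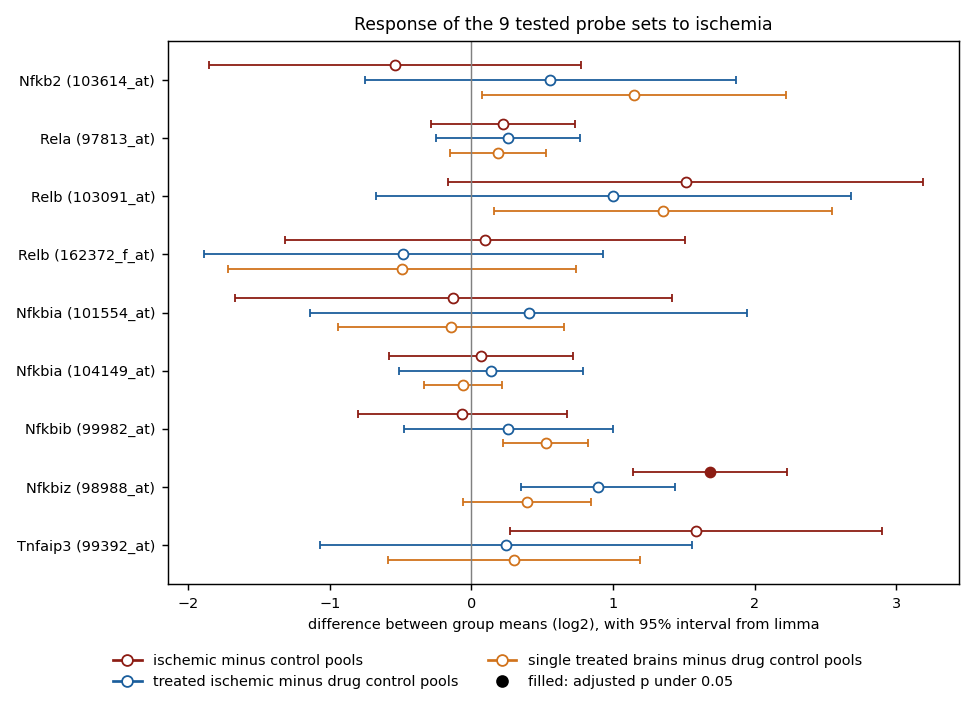
Log2 differences of the 9 tested member probe sets, with 95% intervals from limma, for ischemic minus control pools, treated ischemic minus drug control pools and single treated brains minus drug control pools. The filled point is Nfkbiz at 1.68 in ischemic minus control pools, with an adjusted p under 0.05; the other 26 points are open.

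Tnfaip3 encodes A20, a ubiquitin-editing enzyme that shuts off signalling upstream of the IkB kinase and is itself a classic NF-kB target. Each of the 3 control pools was at the floor, and the values were 8.82, 6.77 and 9.49 in ischemic pools. Ischemic pools 1 and 3 were thus above the controls, and ischemic pool 2 was at the floor. The log2 difference between floored means was 1.59 (SE 0.59; unadjusted p = 0.0225) and did not pass (limma adjusted p = 1). With values at the floor in both groups it is neither a measured change nor a bound: it was 2.21 with a floor at the 5th percentile of positive values, 2.38 without ischemic pool 2 and 1.02 without ischemic pool 3. The drug control pools read 6.77, 7.22 and 6.77, and the treated ischemic pools 7.96, 6.77 and 6.77. With the drug, 1 pool in each group was above the floor, and the difference was 0.25 (SE 0.59; limma adjusted p = 1). In the single brains the values were 7.13, 6.77, 8.45, 6.997 and 6.77, above the floor in 3 of 5.

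Nfkbia and Nfkbib encode IkB-alpha and IkB-beta, the cytoplasmic inhibitors that hold Rela-containing dimers; IkB-alpha is the one resynthesised fastest after activation. Nfkbia is measured by 2 probe sets, both above the floor on all 17 arrays. Probe set 104149_at read 12.58, 13.07 and 12.68 in control, 12.58, 12.70 and 12.65 in drug control, 12.34, 13.37 and 12.82 in ischemic and 12.53, 13.26 and 12.56 in treated ischemic pools. All 4 ranges overlapped. The log2 difference of ischemic from control pools was 0.065 (95% interval -0.58 to 0.71; limma adjusted p = 1), and with the drug it was 0.14 (-0.51 to 0.79; adjusted p = 1). These intervals, from a fit without pairing, reach a 1.64-fold and a 1.73-fold rise, so rises of that size are within the error of that fit. The single treated brains lay between 12.46 and 12.74.

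The other Nfkbia probe set, 101554_at, differed between replicate numbers, while its ranges overlapped between groups. Control pools read 12.77, 13.35 and 11.02, drug control pools 12.57, 12.97 and 11.30, ischemic pools 12.29, 13.20 and 11.27, and treated ischemic pools 12.59, 13.35 and 12.11. Over the first 3 groups, number 3 lay at 11.02 to 11.30, number 1 at 12.29 to 12.77 and number 2 at 12.97 to 13.35, with no overlap between numbers. On 104149_at the same arrays spanned 12.65 to 12.82, 12.34 to 12.58 and 12.70 to 13.37, in another order. Other members separated by number in part. Rela 97813_at was lowest in number 2 (12.31 to 12.68, against 12.78 to 13.06 in number 1 and 12.86 to 13.18 in number 3). Nfkbib was highest in number 2 (11.26 to 11.85, against 10.81 to 11.16 and 10.87 to 10.95). Nfkbiz 98988_at overlapped between all numbers. The share of all probe sets separated by number was not counted. For actin, whose 3' over 5' control signal reads RNA integrity, this ratio was 1.15 to 1.19 in number 3, 1.65 to 1.97 in number 1 and 1.33 to 2.14 in number 2 of these groups; its part in the pattern was not tested. In the fit without pairing, the SE of the ischemic minus control difference was 0.70 for 101554_at, whose estimate was -0.13, against 0.29 for 104149_at. That SE includes the spread between replicate numbers. Between same-numbered pools, ischemic minus control was -0.48, -0.15 and 0.25 for 101554_at and -0.25, 0.30 and 0.14 for 104149_at. Over the 12 pools the probe sets correlated with r = 0.48, as a description of arrays that share these numbers.

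**Figure D3:**
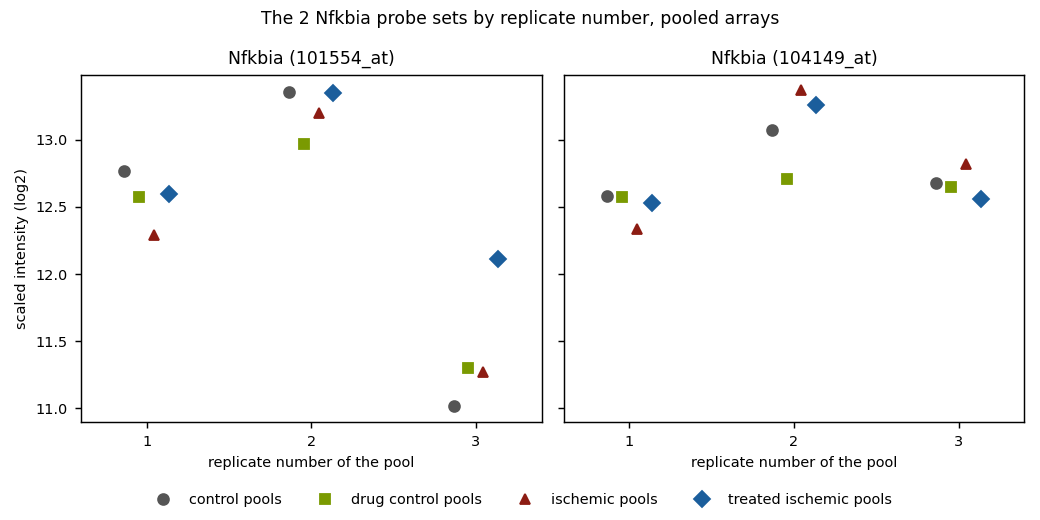
Scaled intensity (log2) of the 2 Nfkbia probe sets on the 12 pooled arrays, by replicate number, with a symbol for each group. On 101554_at the number 3 pools of the control, drug control and ischemic groups lie at 11.02 to 11.30, and on 104149_at the same pools lie at 12.65 to 12.82.

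Nfkbib (99982_at) read 10.92, 11.85 and 10.87 in control, 11.16, 11.26 and 10.95 in drug control, 10.81, 11.70 and 10.94 in ischemic and 10.98, 11.51 and 11.66 in treated ischemic pools. All 4 ranges overlapped, and the log2 differences with ischemia were -0.064 without and 0.26 with the drug (SE 0.33 each; limma adjusted p = 1 for both). The single treated brains read 11.58, 11.74, 11.73, 11.72 and 11.48. All 5 lay above all 3 drug control pools, by 1.44-fold on average (log2 0.52, SE 0.13), and this did not pass (limma adjusted p = 0.0526). The share of all probe sets separated in this way was not counted. In limma, 2783 of 9907 probe sets had an unadjusted p under 0.05 in this comparison. On the treated ischemic pool with the common scale Nfkbib read 10.98, and on the 7 arrays with another scale it read 11.48 to 11.74.

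Among the subunits, Rela encodes p65, the activating partner of the most common NF-kB dimer. Its probe set 97813_at read 12.81, 12.31 and 12.86 in control, 13.06, 12.57 and 12.98 in drug control, 12.78, 12.68 and 13.18 in ischemic and 13.30, 13.02 and 13.07 in treated ischemic pools. The groups overlapped, and Rela had the narrowest interval of the tested subunits: with ischemia it differed by 0.22 without the drug (95% interval -0.29 to 0.73) and by 0.26 with it (-0.25 to 0.77), with a limma adjusted p of 1 for each. Over both drug arms the difference was 0.24 (95% interval -0.12 to 0.60, limma adjusted p = 0.9999), at most 1.52-fold within that interval. These intervals are from the fit without pairing and include the spread between replicate numbers. Between same-numbered pools, ischemic minus control was -0.030, 0.38 and 0.32 for numbers 1, 2 and 3. The single treated brains lay between 12.93 and 13.16.

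Relb encodes the partner of the processed Nfkb2 product in the slower, non-canonical branch of the pathway. Its probe set 103091_at read 6.77, 8.32 and 6.77 in control and 6.77, 8.87 and 6.77 in drug control pools, above the floor in pool 2 of each group. It read 8.34, 10.02 and 8.06 in ischemic and 7.52, 8.56 and 9.34 in treated ischemic pools, above the floor in all 6. The single treated brains read 9.16, 8.94, 9.13, 7.96 and 8.93. Relb was thus above the floor on all 11 arrays of ischemic brain and on 2 of 6 arrays of brain without ischemia, with overlapping ranges. Its log2 difference over both drug arms was 1.26 (SE 0.53; unadjusted p = 0.0398), which did not pass over all probe sets (limma adjusted p = 0.961). It was 0.27 with the floor at the 40th percentile, 1.88 with the floor at the 5th percentile of positive values and 0.78 with the deposited scale as a term. Between same-numbered pools, ischemic minus control was 1.56, 1.69 and 1.29 for numbers 1, 2 and 3, higher in 3 of 3, with the control at the floor in numbers 1 and 3; pool 2 was the highest in each of these groups. With the replicate number as a block this difference, 1.51, did not pass (limma adjusted p = 0.611). A second Relb probe set, 162372_f_at, did not share this pattern: it was above the floor in 1 control, 3 drug control, 1 ischemic and 1 treated ischemic pool, and its difference over both arms was -0.19 (SE 0.45; limma adjusted p = 0.9999).

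Nfkb2 encodes p100, which is both an inhibitor and the precursor of the subunit p52, and it carries the promoter matches shown above. Its probe set 103614_at read 8.33, 7.72 and 7.48 in control, 7.17, 9.01 and 6.77 in drug control, 6.77, 8.35 and 6.77 in ischemic and 8.04, 8.53 and 8.06 in treated ischemic pools. It was at the floor in 2 of 3 ischemic pools and above it in all treated ischemic pools. The differences with ischemia were -0.54 without and 0.56 with the drug (SE 0.59 each; limma adjusted p = 1 for both), and the treated ischemic minus ischemic difference was 0.91 (SE 0.59; adjusted p = 1). The single brains lay between 8.50 and 9.16, all above the highest ischemic pool. Their mean was 2.82-fold that of the ischemic pools (log2 1.50, SE 0.37), which did not pass (limma adjusted p = 0.0805). The share of all probe sets separated like this was not counted, and 2295 of 9889 had an unadjusted p under 0.05 in limma. Of the 7 arrays with another deposited scale, 6 were above the highest ischemic pool for Nfkb2.

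For the drug itself, 0 member probe sets passed after ischemia, where 0.00975% of all probe sets did (1, lower), and 0 passed without ischemia, where again 0.00975% did (1, higher). At an unadjusted p under 0.05 there were 0 members in either, with 151 and 264 probe sets. The single brains gave 0 members called against the drug control pools, where 6.51% of 9907 probe sets passed, and 0 against the ischemic pools, where 1.84% of 9889 passed; unadjusted, there were 3 members in each, with 2783 and 2295 probe sets. The absence of member calls there depended on settings and on single arrays. With every array kept, Nfkbib passed against drug control pools with the 40th percentile floor or no filter (limma adjusted p = 0.0296 and 0.0322). Nfkbiz passed, lower, against ischemic pools with floors at the 10th percentile of positive values or the 40th percentile, or no filter (0.0482, 0.0262 and 0.0491). Without drug control pool 2, Nfkb2 (limma adjusted p = 0.00855), Relb 103091_at (0.0182) and Nfkbib (0.0411) passed, all higher in the single brains. In all, 983 probe sets passed there, against 645 with every array. Without ischemic pool 2, Nfkb2 (0.01003) and Nfkbib (0.0464) passed against the ischemic pools, where 216 probe sets passed, against 182.

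Across the 9 tested probe sets, the median log2 difference was 0.096 with ischemia without the drug (6 higher, 3 lower), beside 0.031 over all tested probe sets. With the drug it was 0.26 (8 higher, 1 lower), beside -0.023. Over both arms it was 0.14 (8 higher, 1 lower), beside 0.014. Among the inhibitors and regulators, Nfkbiz differed by 1.68, Tnfaip3 by 1.59 with no call, and Nfkbia and Nfkbib by under 0.15 in either direction without the drug.

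To set the subunits beside the inhibitors on each array, the brightest probe set of each gene was centred on its control mean and averaged over Nfkb2, Rela and Relb, and over Nfkbia, Nfkbib, Nfkbiz, Tnfaip3 and Bcl3, where Bcl3 adds 0. The inhibitor mean thus includes the nuclear regulators Nfkbiz and Bcl3, while Nfkb2, whose product p100 is also an inhibitor, is counted as a subunit. The inhibitor mean was 0.055 ± 0.052 (SD, n = 3) in drug control, 0.65 ± 0.16 (n = 3) in ischemic and 0.36 ± 0.14 (n = 3) in treated ischemic pools, and single brains had 0.29 ± 0.11 (n = 5). The subunit mean was 0.067 ± 0.71, 0.40 ± 0.60, 0.67 ± 0.28 and 0.96 ± 0.12 in the same order. On single arrays the inhibitor mean was 0.56, 0.57 and 0.83 in the ischemic pools and -0.16 to 0.24 in the control pools, without overlap. This is not a rise of the inhibitors as a class. It rests on Nfkbiz (log2 difference 1.68) and on Tnfaip3 (1.59), whose difference between floored means is not a measured change. Those of Nfkbia 104149_at (0.065) and Nfkbib (-0.064) were small and opposite. How often other sets of genes separate these pools was not counted. Inhibitors minus subunits came to 0.53, -0.52 and 0.76 in the 3 ischemic pools, 0.12, -0.37 and -0.68 in treated ischemic pools, and single brains had -0.87 to -0.46. The groups of pools overlapped, while every single brain was below 0. The low values of ischemic pool 2 (-0.52) and drug control pool 2 (-0.77) came with Relb and Nfkb2 values that were the highest of their groups, and in ischemic pool 2 with Tnfaip3 at the floor. With the floor raised to the 40th percentile, at or above 14 of 17 Nfkb2 and 10 of 17 Relb values, the single brains averaged -0.048 in place of -0.67 and the treated ischemic pools 0.045 in place of -0.31. The ischemic mean of 0.26 was 0.64 without ischemic pool 2, 0.12 without pool 1 and 0.0038 without pool 3.

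**Figure D4:**
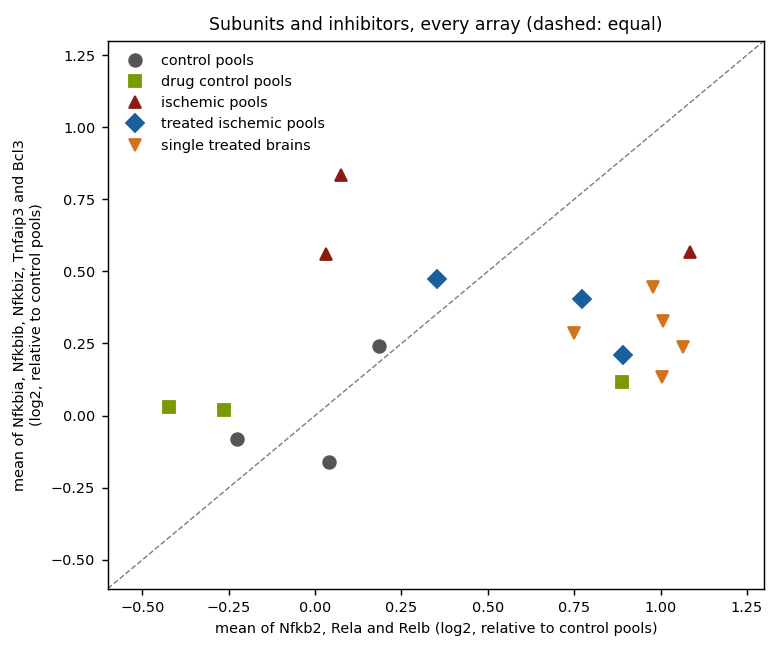
Mean log2 of the inhibitor genes against mean log2 of the subunit genes on each of the 17 arrays, both relative to the control pools, with a symbol for each group and a dashed line where they are equal. The 5 single treated brains lie below the line at subunit means from 0.75 to 1.06, and ischemic pools 1 and 3 lie above it at inhibitor means of 0.56 and 0.83.

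Upstream of the subunits, 31 of 50 listed cytokines, receptors, adaptors and kinases were tested, by the brightest probe set of each gene. In limma, 0 passed with ischemia without or with the drug (3 and 2 at an unadjusted p under 0.05), beside 0.214% and 0.0877% of all probe sets. Over both arms 4 had an unadjusted p under 0.05, and 2 passed, both higher, beside 0.448% of all probe sets. These were Il1a, the cytokine interleukin-1 alpha (log2 1.86, SE 0.32, adjusted p = 0.0356), and Cd14, the coreceptor for bacterial lipopolysaccharide (1.12, SE 0.17, adjusted p = 0.0185). The Il1a call held in 6 and the Cd14 call in 12 of 20 alternatives; both were lost with the deposited scale as a term and, among others, without ischemic pool 1 or 2, drug control pool 2 or 3, treated ischemic pool 1 or 2, or control pool 2. With the floor at the 40th percentile the Il1a difference was 0.35. The largest differences without a call were those of Ltbr, the lymphotoxin beta receptor (1.49, SE 0.84), Birc3, a ubiquitin ligase of the TNF receptor complex (1.38, SE 0.35), Il1r2, a decoy receptor for interleukin-1 (0.89, SE 0.33), and Map3k8, a kinase upstream of NF-kB and ERK (0.83, SE 0.40). The median of the 31 was 0.20 without the drug, -0.0019 with it and 0.071 over both arms. In single treated brains against drug control pools, 2 of 31 passed higher and 0 lower, beside 6.51% of all probe sets.

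Downstream, 34 of 42 listed NF-kB target genes were tested. This list and the upstream one were written with results of these data known, so their shares and medians are descriptions and not independent tests. Without the drug 29 of 34 were higher, beside 54.3% of all probe sets. At an unadjusted p under 0.05 in limma there were 15, beside 423 of all 10259 probe sets. After adjustment 2 passed, beside 0.214% of all probe sets: the chemokine Ccl3 (log2 2.16, SE 0.30, adjusted p = 0.0188) and the stress gene Gadd45b (3.01, SE 0.43, adjusted p = 0.0213). Both calls were lost when control pool 1 or any ischemic pool was left out, that of Ccl3 also without control pool 2 and that of Gadd45b under quantile normalisation (adjusted p up to 0.0986 for Ccl3 and 0.127 for Gadd45b). With the drug 0 passed among the pools, beside 0.0877% of all probe sets, with 11 targets and 353 of all probe sets at an unadjusted p under 0.05. In single treated brains against drug control pools, 8 of 33 tested targets passed higher and 1 lower, beside 6.51% of all probe sets. Scale and group cannot be told apart in that comparison. Over both arms the median of the 34 was 0.37, and 16 had an unadjusted p under 0.05 in limma, beside 505 of all probe sets. After adjustment 7 rose, beside 0.448% of all probe sets passing: the neutrophil chemokine Cxcl1 (3.36, SE 0.48), the monocyte chemokine Ccl2 (3.25, SE 0.42), Gadd45b (2.87, SE 0.30), Ccl3 (1.87, SE 0.21), the adhesion molecule Icam1 (1.82, SE 0.31), the AP-1 subunit Junb (1.59, SE 0.21) and the immediate early gene Ier3 (1.20, SE 0.17), with limma adjusted p from 0.00236 to 0.0356. The call of Icam1 held in 3 of 20 alternatives, and was lost when any pool but drug control pool 1 was left out (adjusted p up to 0.157 over all alternatives), and its difference was 0.69 with the floor at the 40th percentile. Those of Gadd45b and Ccl3 held in all 20, and those of Cxcl1, Ccl2, Junb and Ier3 in 19. These 4 were lost with the deposited scale as a term, a fit resting on 1 treated ischemic pool, where their log2 differences were 3.38, 3.17, 1.56 and 1.28 (adjusted p from 0.0839 to 0.113). The counts are for the brightest probe set of a gene. Dimmer ones gave 3.49 for Gadd45b (102779_at; adjusted p = 0.0146, held in 15 of 20), 2.07 for Cxcl1 (95349_g_at; 0.145) and 1.89 for Junb (102363_r_at; 0.336). Socs3, a feedback inhibitor of cytokine signalling, passed on its dimmer probe set (162206_f_at; 1.49, SE 0.16, adjusted p = 0.00252) and not on its brighter one (92232_at; 1.46, SE 0.26, adjusted p = 0.0507). The dimmer Socs3 probe set also passed without the drug (1.74, limma adjusted p = 0.0155), a call lost when any control or ischemic pool was left out (adjusted p up to 0.0962 over all alternatives). The largest without a call were Cxcl10 (2.25, SE 0.83), Cxcl2 (1.92, SE 0.37; 0.37 with the floor at the 40th percentile), Il6 (1.62, SE 0.37) and Ptgs2 (1.61, SE 0.29), 3 inflammatory messengers and an enzyme of prostaglandin synthesis.

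The median target difference was 0.83 without the drug and 0.42 with it, against 0.031 and -0.023 over all probe sets. Markers of entering and resident cells are given beside these values; their part in them was not tested. Of 10 listed neutrophil markers 9 were tested; all 9 were higher in ischemic than control pools (median 0.66; 54.3% of all probe sets were higher), 1 passed (S100a8), and Ngp was at the floor on all arrays. Their summed intensity ran from 3035 to 10750 in control and from 6243 to 11246 in ischemic pools. With the drug, 7 of 9 were higher with ischemia (median 0.29, beside 46.4% of all probe sets higher) and 0 passed. In the difference between the responses 0 of 9 were higher (median -0.43), as were 6 of 34 targets (median -0.36), beside 45.4% of all probe sets (median -0.043). That difference includes the control groups. In drug control against control pools, 9 of 9 neutrophil markers (median 0.41) and 22 of 34 targets (0.18) were higher, beside 54.6% of all probe sets. In treated ischemic against ischemic pools, 2 of 9 markers (median -0.11) and 9 of 34 targets (-0.17) were higher, beside 47.0%. Single brains against ischemic pools gave 0 of 8 neutrophil markers higher (median -0.74) and 10 of 34 targets (median -0.27), beside 45.5% of all probe sets. In ischemic against control pools, no marker passed for microglia and macrophages (7 tested, median 0.017), endothelium (7, 0.40), astrocytes (4, 0.26), oligodendrocytes (4, 0.29), neurons (6, -0.14) or lymphocytes (3, -0.15), where Cd3e and Cd8a were at the floor on all arrays.

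By pattern over the 12 pools, the genes most like Nfkbiz 98988_at were Ifi207 (Pearson r = 0.93), Atf3 (0.92), Hspd1 (0.91), Thbd (0.91) and Ier3 (0.90), of 9082 candidate probe sets. Atf3 is a stress-induced transcription factor, Hspd1 a mitochondrial chaperone and Thbd the endothelial receptor thrombomodulin. Those most like Nfkbia 104149_at were 1700074P13Rik (0.94), Rdh11 (0.92), Vta1 (0.92), Coq9 (0.92) and Gnai2 (0.91), of 9081. Neither Nfkbiz nor another member was among the 5 most like Nfkbia. These correlations describe 12 arrays that share groups and replicate numbers.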

How the data were processed

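The authors deposited linear intensities, 1 for each probe set on each array, some below 0; their software and scaling: not given in the sources used here. Groups came from the sample titles, and single brains from their descriptions. Each array was scaled to one trimmed mean (2nd to 98th percentile), floored and converted to log2. Probe sets exceeding the floor on 3 or more of the arrays fitted were tested with limma 3.58.1 in R 4.3.3, with two-sided p and Benjamini-Hochberg adjustment over all tested probe sets of each of 8 comparisons, threshold 0.05. The 12 pools shared 1 fit of 4 group means (8 residual and 2.23 prior degrees of freedom). Single brains were fitted with 1 group of pools each, and those p-values pool 2 kinds of spread. The fit was tested on simulated data.

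The labels name no separate cultures or days: p-values measure the spread between pools, and the number of arrays, 3 per pooled group, limits precision. Replicate numbers are taken as pairing control, drug control and ischemic pools, because same-numbered arrays deviated together (r from 0.33 to 0.57 over probe sets). Pairs with treated ischemic pools gave r from -0.34 to 0.40, negative only in number 3, and are not paired. The numbers of that group are uncertain, since pool 2 is described as the first replicate.

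Symbols are those of the platform annotation: 10855 probe sets have 1 symbol, 396 several and 1237 none, and 10839 were kept or updated through the Entrez number. All member probe sets are described; upstream and target genes are named if a probe set passed in a comparison of pools, plus the 4 largest differences over both drug arms; 5 genes are named by likeness for Nfkbiz and for Nfkbia. Members, pathway and cell type lists were chosen with earlier results of these data known. Alternatives changed the floor, filter, normalisation, grouping, blocks and arrays. No genome was used; promoter windows are RefSeq's.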

Additional observations from a re-analysis of the deposited data

Results flagged for a closer look

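Among the 5 single treated brains, 3 member values stood far from the other 4, with a gap to the nearest brain of over 0.71 of the whole range, a limit that chance passes in about 1 in 20 groups. That rate is for values without a floor. With 12 member probe sets, 3 such gaps were not tested against it. Relb (103091_at) read 7.96 in brain 14, below the others (gap 0.813 of the range). Tnfaip3 (99392_at) read 8.45 in brain 13, above the others (0.790), with 3 of 5 brains above the floor. The second Nfkbiz probe set (161903_f_at) read 6.88 in brain 14, where the 4 others were at the floor, so its gap is the whole range (1). That probe set entered no test, and on 3 arrays of ischemic brain it was above every control and drug control pool, all of which were at the floor. The other arrays of ischemic brain were at the floor too. Scaled intensities on the 3 arrays were 118.1 to 174.6, near the floor of 109.5, and control pool 1 read 92.1.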

How the results depend on the processing

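Of 517 values of individual members under other settings, 493 kept their sign and side of the threshold, 1 lost its call, 5 gained one and 18 turned sign without a call; of 789 with 1 array left out, 703, 6, 5 and 75 did so. None of the members reversed a call. Without the drug, the count of members called with ischemia was 0 under quantile normalisation (Nfkbiz 1.54, adjusted p = 0.0556) and 0 to 1 with an array left out; over both arms it was 1 throughout. In single brains against ischemic pools the count of 0 became 1, Nfkbiz, with floors at the 10th percentile of positive values (adjusted p = 0.0482) and at the 40th percentile (0.0262) and with no filter (0.0491), and was 0 to 2 with an array left out. Against drug control pools it became 1, Nfkbib, with the 40th percentile floor (0.0296) and with no filter (0.0322), and was 0 to 3 with an array left out. The inhibitor minus subunit value of single brains moved to -0.048 with the 40th percentile floor, where that of treated ischemic pools was 0.045. The cause was not tested in these cases.

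With the replicate number as a block, Nfkbiz kept its call without the drug (adjusted p = 0.0476) and over both arms (0.0207), and the count of all probe sets called without the drug was 35 in place of 22; the block changed no other call of a member. The pairing it assumes does not extend to the treated ischemic pools. Other counts over all probe sets moved by over 1.5 times: 13 without the drug under quantile normalisation; 16 with the 40th percentile floor and 1 with the scale block for ischemia with the drug; 19 with the scale block over both arms; 0 for the drug after ischemia with the 40th or 5th percentile floor or groups from the descriptions; 0 for the drug without ischemia with quantile normalisation, the 5th percentile floor, no filter, the replicate block or the descriptions; 1 with no filter for the difference between the responses; 125 for single brains against drug control pools with all 17 arrays in 1 fit; and 393, 116, 308 and 14 against ischemic pools with the 40th and 5th percentile floors, no filter and all 17 arrays. With 1 array left out, the 22 called without the drug became 1 without ischemic pool 1 or 3, 5 without ischemic pool 2, and 9 and 7 without control pools 1 and 2. The 9 with the drug became 1 without drug control pool 3 or any treated ischemic pool, and 5 without drug control pool 2 or ischemic pool 1; the 46 over both arms became 30 without ischemic pool 1. The drug alone gave 0 to 1 after and 0 to 2 without ischemia. The 645 in single brains against drug control pools became 983 and 234 without drug control pools 2 and 3 and 264 to 328 without any 1 brain. The 182 against ischemic pools became 449 and 279 without ischemic pools 1 and 3 and 48 to 60 without any 1 brain. The 5th percentile floor was chosen after seeing the data.

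Precision limits these results: 3 arrays a group, floored values for Relb, Nfkb2 and Tnfaip3, no reading for Bcl3 and no probe set for Nfkb1. Transcript levels do not report NF-kB activity, which is set largely by protein location.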
